A study of Mus musculus with 4 samples.

Results

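Transcripts of 6 megakaryocyte and platelet genes were measured by RNA sequencing in mouse osteoclast precursor cells: Pf4, Ppbp, Itga2b, Gp9, Gp1bb and Treml1. They were taken by symbol from a table of 53801 genes, each symbol matched 1 gene ID, and all 6 passed the filter on low counts that left 17462 genes for testing. The cells came from 2 wild-type C57BL/6 mice and are numbered precursor cells 1 and 2. Under each number stand a library from PBS, the saline control, and a library from DKK1 (200 ng/ml), both for 3 h. The 4 libraries are named below PBS 1, DKK1 1, PBS 2 and DKK1 2. Each number was taken as a preparation shared by both treatments, and the pairing used below rests on this. That a preparation was split, and which mouse a number stands for, is not stated in the labels. DKK1 (Dickkopf-1) is a secreted inhibitor of canonical Wnt signalling. The labels give neither the tissue the cells were taken from nor how they were cultured.

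Megakaryocytes are the large marrow cells that shed platelets. Their alpha granules store the chemokines encoded by Pf4 and Ppbp, and their surface carries the fibrinogen receptor, a pair of the subunits Itga2b and Itgb3, and the GPIb-IX-V receptor for von Willebrand factor, built from Gp1ba, Gp1bb, Gp5 and Gp9. Most of these receptor genes are used as markers restricted to the megakaryocyte lineage, whereas Pf4 transcripts are also known from monocytes and macrophages. Osteoclast precursors belong to that myeloid lineage and fuse into bone-resorbing osteoclasts.

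Library totals lay between 41163663 and 53537927 counts. The defining markers of the labelled cells were present: Csf1r, the M-CSF receptor, lay between 1968 and 2592 CPM (counts scaled to a common library size) and Tnfrsf11a, which encodes RANK, between 197 and 203 CPM. Calcr, the calcitonin receptor of mature osteoclasts, had 0 counts in all 4 libraries, and the osteoclast receptor gene Oscar had at most 6. Other genes used by osteoclasts were present, with Acp5 between 329 and 475 CPM and Mmp9 between 276 and 586. Ctsk had 4.11 CPM in PBS 1, 7.34 in DKK1 1, 29.1 in PBS 2 and 25.9 in DKK1 2. Atp6v0d2 lay between 9.17 and 12.1 CPM, and Dcstamp and Ocstamp lay below Ctsk in every library. How far the cells had differentiated was not tested. Of the 6 genes, none was absent from any library, and the lowest count was 896, for Treml1 in PBS 2. In bulk RNA, fewer cells of a type and less RNA per cell cannot be told apart.

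Positions are those of GENCODE M21 on GRCm38 (mm10), and all 6 genes are protein-coding. Ppbp (ENSMUSG00000029372, chromosome 5, 90768518 to 90770063, plus strand) and Pf4 (ENSMUSG00000029373, chromosome 5, 90772435 to 90773383, plus strand) are neighbours with 2371 bases between them. Itga2b (ENSMUSG00000034664) lies on chromosome 11 from 102453297 to 102470122 on the minus strand. Gp9 (ENSMUSG00000030054) lies on chromosome 6 from 87778072 to 87779768, and Treml1 (ENSMUSG00000023993) on chromosome 17 from 48359916 to 48367176, both on the plus strand. Gp1bb (ENSMUSG00000050761) lies on chromosome 16 from 18620317 to 18622403 on the minus strand. Its single exon block of 2087 bases shares 1902 bases with exons of Sept5, a septin gene on the same strand, so reads could be assigned to either, and 60.4% of the counts of both together stood under Gp1bb. The other 5 genes share no exon base with another model and have no near-identical transcript.

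Pf4 encodes platelet factor 4, a chemokine that binds heparin. It had 839 CPM in PBS 1, 774 in DKK1 1, 355 in PBS 2 and 364 in DKK1 2. Both libraries of precursor cells 1 stood far above both of precursor cells 2, and the treatments overlapped. Ppbp encodes pro-platelet basic protein, the precursor of the neutrophil-attracting chemokine Cxcl7. It had 504, 497, 354 and 364 CPM in the same order. The 2 preparations again did not overlap, but by a smaller margin.

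Itga2b, the alpha chain of the fibrinogen receptor (integrin alpha IIb, CD41), had 200 CPM in PBS 1, 186 in DKK1 1, 215 in PBS 2 and 213 in DKK1 2. Here precursor cells 2 were slightly above precursor cells 1. By the authors' deposited FPKM, scaled otherwise, the preparations overlapped for Itga2b, at 35.1, 32.7, 33.5 and 33.2 in the same order. Gp9, a small leucine-rich subunit of GPIb-IX-V, had 24.7, 26.7, 28.3 and 26.6 CPM, with overlap in both contrasts. Gp1bb, the beta chain of GPIb, had 50.0, 52.9, 45.8 and 45.5 CPM as deposited, with an uncertain part of the reads it shares with Sept5. Treml1, which encodes TLT-1, a receptor of alpha granules brought to the platelet surface on activation, had 34.0, 28.4, 23.2 and 22.8 CPM. Its PBS 1 library was the highest, and both of precursor cells 2 were lowest.

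To compare genes with each other, CPM was divided by exon length in kilobases (RPKM). Pf4 stood at 1163 RPKM in PBS 1, 1074 in DKK1 1, 492 in PBS 2 and 504 in DKK1 2. Ppbp stood at 465, 459, 327 and 336 RPKM. By RPKM, Pf4 ranked 21st of 17425 genes in PBS 1 and 87th in PBS 2, and Ppbp ranked 75th and 143rd. The surface receptors lay far lower, with Itga2b from 34.1 to 39.5 RPKM, Gp9 from 28.0 to 32.2, Gp1bb from 21.8 to 25.4 and Treml1 from 16.3 to 24.3. In these RPKM ranges over the 4 libraries, the neighbours Gp1bb and Treml1 overlapped, and no other neighbours in the order did. By the authors' deposited FPKM other neighbours overlapped too. Pf4 went down to 418 and Ppbp up to 445, and Gp9 went down to 25.7 and Gp1bb up to 27.0. Within each library Pf4 stayed above Ppbp and Gp9 above Gp1bb by FPKM. The place of Gp1bb rests on its deposited counts, which depend on how reads shared with Sept5 were assigned.

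**Figure D1:**
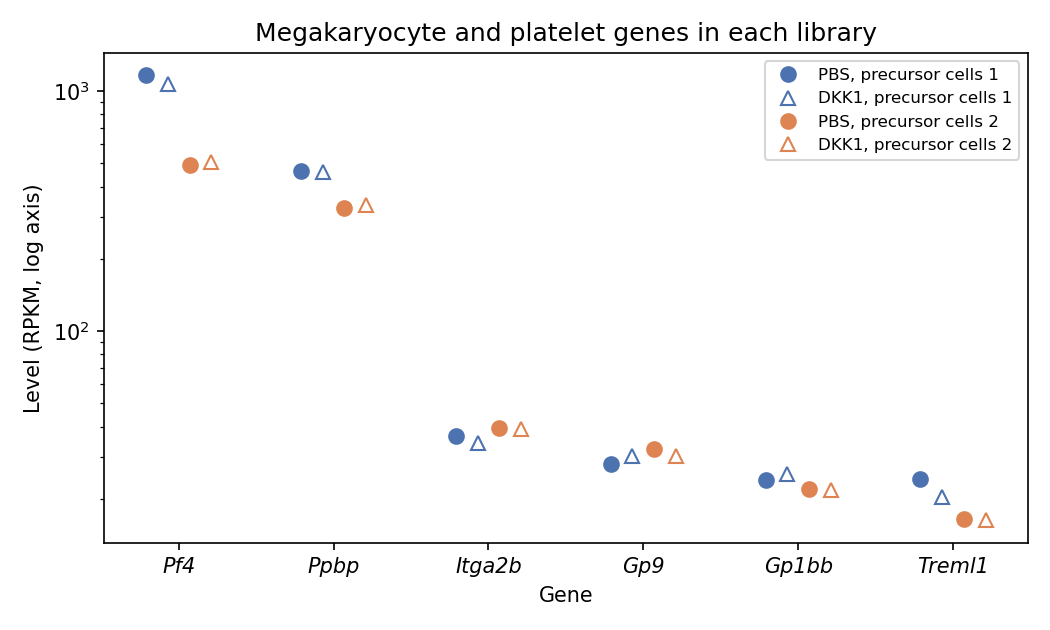
Level of each of the 6 genes in each library, in RPKM on a log axis; filled circles are PBS, open triangles DKK1, blue precursor cells 1 and orange precursor cells 2. Pf4 and Ppbp sit far above the 4 receptor genes, and Pf4 falls from 1163 and 1074 RPKM in precursor cells 1 to 492 and 504 in precursor cells 2.

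The first comparison asked what DKK1 changed within 3 h. None of the 6 genes passed edgeR's paired quasi-likelihood test (0 of 6, against 0.0515% of all genes tested, 0.0401% higher and 0.0115% lower). At an unadjusted p under 0.05 the count was 0, against 4.47% of all genes, and DESeq2 and limma-voom also called 0. The PBS and DKK1 libraries overlapped for all 6 genes, against 16.2% of all genes without overlap (7.93% higher and 8.31% lower with DKK1). This overlap does not use the pairing. Where the preparations lie far apart, as for Pf4, the treatments overlap also under a modest change with DKK1. For such genes the overlap therefore says nothing on a modest change. The median log2 change of the 6 was -0.02, beside -0.001 over all genes.

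For Pf4 the log2 change with DKK1 was -0.04 (95% CI -0.17 to 0.09; edgeR adjusted p = 0.970), with -0.12 for the first pair of libraries and 0.03 for the second. Ppbp had a log2 change of 0.01 (95% CI -0.11 to 0.12), the narrowest interval of the 6. For the receptors the intervals were -0.20 to 0.08 (Itga2b, log2 change -0.06), -0.25 to 0.28 (Gp9, 0.02) and -0.16 to 0.24 (Gp1bb, 0.04). Treml1 had the largest value, -0.15 (95% CI -0.42 to 0.12; edgeR adjusted p = 0.959), made of -0.26 for the first pair and -0.02 for the second. The authors' deposited table for precursor cells 1, which sets 1 library against 1, lists Treml1 at a log2 ratio of -0.26 with an FDR of 0.0105 and does not mark it as significant. The authors' deposited table for precursor cells 2 lists it at -0.02 with an FDR of 0.930.

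A list of 63 further megakaryocyte and platelet genes was read in the same fit. edgeR called 0 of 63 with DKK1, beside 0.0515% of all genes tested, and DESeq2 and limma-voom called 0. By edgeR, 1 gene of the 63 had an unadjusted p under 0.05, beside 4.47% of all genes. That gene was Rasgrp2, which encodes a guanine nucleotide exchange factor for the platelet GTPase Rap1 and had the lowest log2 change, -0.20 (edgeR adjusted p = 0.959). Tal1, a transcription factor of blood stem cells and megakaryocytes, had the highest, 0.24 (edgeR adjusted p = 0.959). The median over the 63 was -0.01, beside -0.001 over all genes. Of the 63, 29 lay above and 34 below 0.

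**Figure D2:**
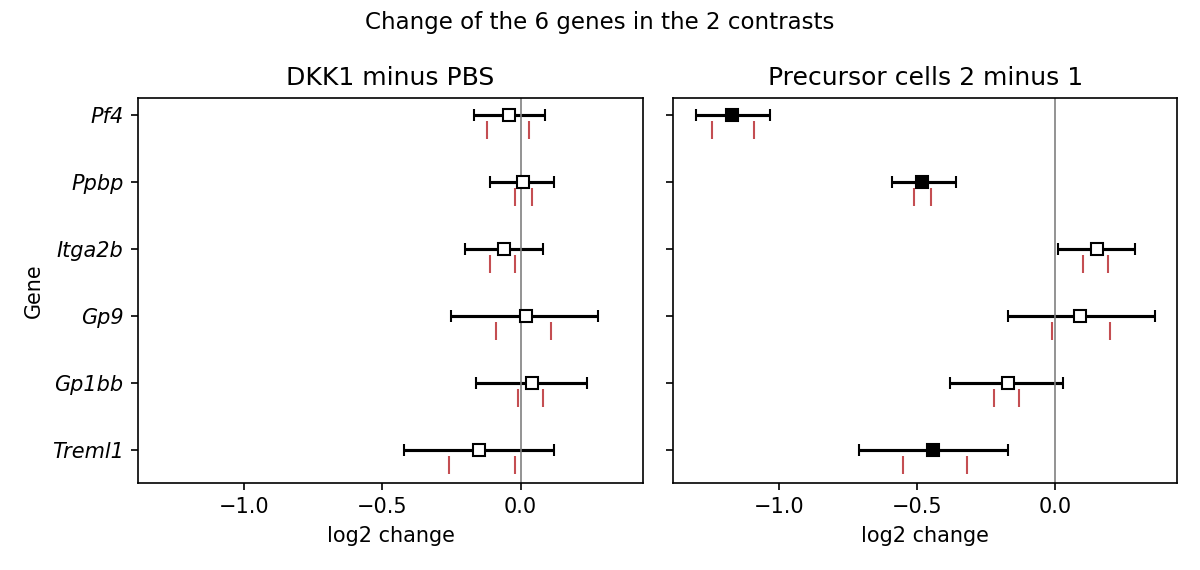
log2 change of each gene with DKK1 (left) and between the preparations (right): squares are edgeR estimates with 95% confidence intervals, filled where the adjusted p is under 0.05, and red ticks are the 2 differences between single libraries behind each. All 6 intervals on the left include 0; on the right Pf4 stands apart at -1.17.

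The second comparison, from the same fit, set precursor cells 2 against precursor cells 1. No preparation was replicated, so it compares these 2 preparations and not a property of mice. Pf4, Ppbp and Treml1 were lower in precursor cells 2, and Itga2b, Gp9 and Gp1bb did not pass the test. The 3 genes called lower, and 0 called higher, stand against 15.9% of all genes called lower and 33.8% called in either direction. At an unadjusted p under 0.05 the count was 4, against 44.5% of all genes. Groups did not overlap for 4 genes that were lower (35.3% of all genes) and 1 that was higher (33.7%). Such separation was common in these libraries, since 69.0% of all genes showed it.

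Pf4 was 2.24-fold lower in precursor cells 2, a log2 difference of -1.17 with a 95% CI from -1.30 to -1.03 (edgeR adjusted p = 5.03e-05). The difference was -1.24 between the PBS libraries and -1.09 between the DKK1 libraries. Of the 17462 genes tested, 6.79% had a log2 change at or below that of Pf4. Ppbp was 1.39-fold lower, at a log2 difference of -0.48 with a 95% CI from -0.59 to -0.36 (edgeR adjusted p = 0.000937), with -0.51 and -0.45 in PBS and DKK1. Its interval and that of Pf4 did not overlap. Treml1 was 1.35-fold lower, at -0.44 with a 95% CI from -0.71 to -0.17 (edgeR adjusted p = 0.0289). That call ended with DESeq2 (adjusted p = 0.0735), without the filter on low counts (0.0800) and when PBS 1, PBS 2 or DKK1 2 was left out (0.118 to 0.161).

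Itga2b had a log2 difference of 0.15 between the preparations (95% CI 0.01 to 0.29; edgeR adjusted p = 0.0987), and Gp9 one of 0.09 (95% CI -0.17 to 0.36; edgeR adjusted p = 0.546). Gp1bb had a log2 difference of -0.17 (95% CI -0.38 to 0.03; edgeR adjusted p = 0.164). Sept5, which shares its exons, moved the other way, with 24.9 and 24.0 CPM in the first preparation and 41.8 and 43.7 CPM in the second. Summed with Sept5, the sign of the Gp1bb value turned to 0.22 (edgeR adjusted p = 0.0547), so no direction can be given for Gp1bb alone.

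Set against the lineage-restricted receptors, Pf4 took a different share in each preparation. The ratio of Pf4 to Itga2b in RPKM was 31.7 in PBS 1 and 31.5 in DKK1 1, but 12.5 in PBS 2 and 12.9 in DKK1 2. The ratio of Pf4 to Gp9 was 41.5 (PBS 1) and 35.4 (DKK1 1), then 15.3 (PBS 2) and 16.7 (DKK1 2). The chemokine genes also differed from each other, since the ratio of Pf4 to Ppbp went from 2.50 and 2.34 to at most 1.51. Ppbp over Itga2b was 12.7 (PBS 1) and 13.4 (DKK1 1), then 8.28 (PBS 2) and 8.62 (DKK1 2). Such a shift was not confined to the chemokine genes. Treml1 over Itga2b was 0.661 (PBS 1) and 0.594 (DKK1 1), then 0.419 (PBS 2) and 0.417 (DKK1 2). The log2 ratio to Itga2b thus differed between the preparations by -0.63 for Ppbp, -0.58 for Treml1 and -0.50 for Itgb3. Over Gp9 it differed by -0.11 for Gp1ba, 0.07 for Gp5 and, by the deposited counts, -0.27 for Gp1bb. With 2 libraries against 2, an exact two-sided permutation test of such a ratio cannot give a p below 0.333, so the ratios are given as values.

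The sequences before the RefSeq start (GRCm38.p6) are shown for the 3 genes called lower in precursor cells 2 and for Gp9, which was not called. Each runs 5′ to 3′ on the gene's strand for 250 bases up to the start, and capitals mark matches, on either strand, to the GATA factor motifs AGATAA and TGATAA or the ETS factor motifs CCGGAA and CAGGAA. Pf4 is chr5:90772185-90772434, Ppbp chr5:90768268-90768517, Treml1 chr17:48359666-48359915 and Gp9 chr6:87777820-87778069, all on the plus strand.
Pf4: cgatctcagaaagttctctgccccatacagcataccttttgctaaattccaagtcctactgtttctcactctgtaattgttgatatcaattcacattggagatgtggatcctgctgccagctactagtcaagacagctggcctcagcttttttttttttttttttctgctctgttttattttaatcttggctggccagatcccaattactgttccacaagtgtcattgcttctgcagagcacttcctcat
Ppbp: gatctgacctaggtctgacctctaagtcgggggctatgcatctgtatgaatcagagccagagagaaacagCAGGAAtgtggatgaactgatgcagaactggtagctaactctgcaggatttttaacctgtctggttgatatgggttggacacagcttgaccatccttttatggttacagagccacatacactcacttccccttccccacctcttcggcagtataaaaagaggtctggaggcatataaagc
Treml1: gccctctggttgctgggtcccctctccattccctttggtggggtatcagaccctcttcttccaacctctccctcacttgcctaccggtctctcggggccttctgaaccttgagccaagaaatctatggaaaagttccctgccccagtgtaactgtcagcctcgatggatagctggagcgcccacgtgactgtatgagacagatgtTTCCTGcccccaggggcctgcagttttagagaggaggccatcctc
Gp9: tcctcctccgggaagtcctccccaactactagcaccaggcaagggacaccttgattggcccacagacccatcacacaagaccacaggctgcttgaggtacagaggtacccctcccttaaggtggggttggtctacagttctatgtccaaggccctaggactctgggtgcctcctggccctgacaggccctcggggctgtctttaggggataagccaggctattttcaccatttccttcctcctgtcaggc

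GATA and ETS factors are known to act together at megakaryocyte promoters. CAGGAA was present once in Ppbp, from -180 to -175 relative to the start, and once in Treml1, on the other strand from -45 to -40. It was also present in the window of Itga2b, which is not shown because 180 of its bases lie in an annotated exon. The window of Gp1bb lies wholly in Sept5 exons and is not shown either. CAGGAA or its complement was found in 25.7% of 32817 promoter windows of the same length and CCGGAA in 3944 of them, so 3 of 6 with an ETS motif stand beside 35.0% of all windows. Neither GATA motif was in any of the 6 windows, beside 16.6% of all windows. These are matches of letters in a window and not binding sites.

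The partners of the receptors were present at similar levels. Itgb3, the beta chain that pairs with Itga2b and also with the alpha V chain in osteoclasts, had 56.1 and 55.2 RPKM in the first preparation and 44.4 and 42.7 in the second. It was lower in precursor cells 2 (log2 -0.36, edgeR adjusted p = 0.00369). Gp1ba, the ligand-binding chain of GPIb, had 18.7, 18.2, 19.3 and 17.3 RPKM in PBS 1, DKK1 1, PBS 2 and DKK1 2, and Gp5 had 24.6, 22.8, 26.2 and 26.9 RPKM. By the deposited counts, the 4 chains of GPIb-IX-V thus lay between 17.3 and 32.2 RPKM in every library, with Gp9 the highest. The level of Gp1bb depends on how reads shared with Sept5 were assigned, so its place among the chains is not settled. Gp1ba, as well as Gata1, Gp6 and Clec1b below, was named after its values were seen.

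**Figure D3:**
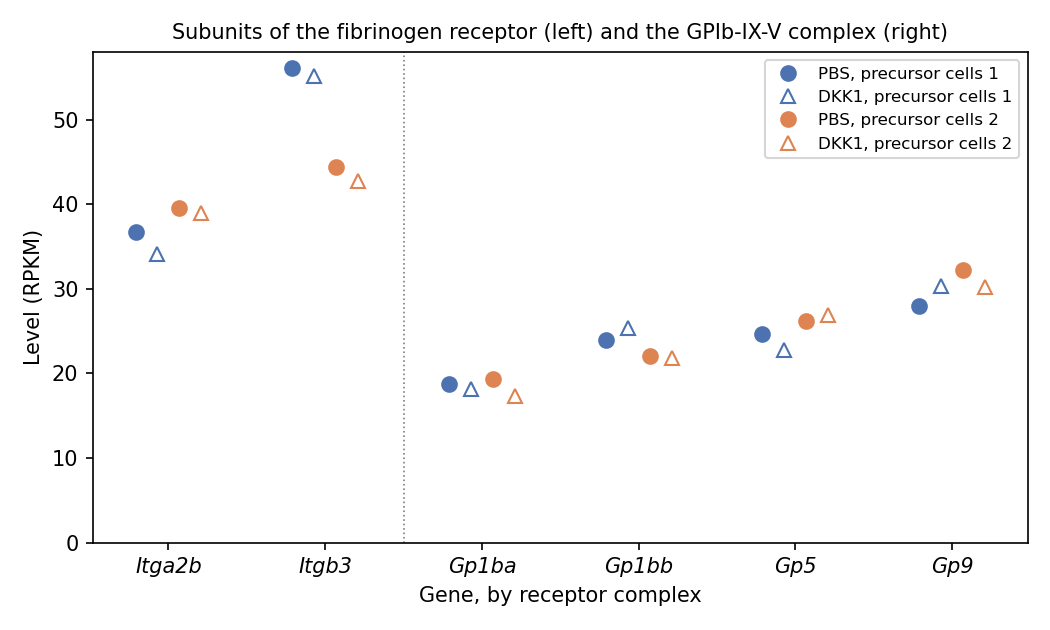
Level in RPKM of the subunits of the fibrinogen receptor (left of the dotted line) and of GPIb-IX-V (right) in each library; filled circles are PBS, open triangles DKK1, blue precursor cells 1 and orange precursor cells 2. By the deposited counts, the GPIb-IX-V chains lie between 17.3 and 32.2 RPKM, where the level of Gp1bb depends on reads shared with Sept5. Itgb3 parts the preparations (56.1 and 55.2 against 44.4 and 42.7 RPKM).

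Between the preparations, edgeR called 30 of the 63 further genes, 14 higher and 16 lower in precursor cells 2, beside 17.9% and 15.9% of all genes. Their median log2 difference was -0.01, and that of all genes -0.003. Without PBS 2 the count was 17 and without DKK1 2 it was 18. Of 11 adhesion receptors, 1 was higher and 3 were lower. Besides Itgb3, the lower ones were Cd9, a tetraspanin (log2 -0.27, edgeR adjusted p = 0.0165), and Selp, the alpha-granule adhesion molecule P-selectin (log2 -0.55, edgeR adjusted p = 0.0211). Pecam1, which platelets share with endothelium and leukocytes, was higher (log2 0.50, edgeR adjusted p = 0.0190). The calls of Cd9 (adjusted p up to 0.0700 by edgeR), Selp (up to 0.0891) and Pecam1 (up to 0.128) ended without PBS 2, that of Selp also without PBS 1, those of Cd9 and Pecam1 without DKK1 2, that of Pecam1 without DKK1 1, and those of Selp and Pecam1 without the filter. Gp5 (log2 0.16) and the tetraspanin Cd151 (-0.24) were not called. The collagen receptor gene Gp6 had 18.9, 19.1, 17.2 and 17.1 CPM and the podoplanin receptor gene Clec1b 26.3, 25.8, 24.7 and 27.2 CPM in PBS 1, DKK1 1, PBS 2 and DKK1 2.

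Of 10 receptors for agonists and growth factors, 0 were higher and 3 lower, beside 17.9% and 15.9% of all genes. Ptgir, the prostacyclin receptor that restrains platelets, fell from 69.2 and 62.9 CPM to 41.3 and 37.0 (log2 -0.76, edgeR adjusted p = 0.00121). F2rl2, the thrombin receptor PAR3, fell (log2 -0.39, edgeR adjusted p = 0.0158), a call that ended without PBS 2 (0.0691). Tbxa2r, the thromboxane receptor, was low throughout, at 2.87 to 9.17 CPM, and fell (log2 -1.06, edgeR adjusted p = 0.0408). That call ended with DESeq2 (0.0517), limma-voom (0.0550), edgeR's legacy method (0.0587), without the filter (0.147) and without PBS 1 (0.108), PBS 2 (0.169) or DKK1 2 (0.0768). The ATP-gated channel gene P2rx1 (log2 0.30) and the thrombin receptor gene F2r (-0.12) were not called.

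Among 14 genes of granule contents and biogenesis, 4 were higher and 4 lower, beside 17.9% and 15.9% of all genes. F13a1, the A chain of coagulation factor XIII, which is made by megakaryocytes and also by monocytes and macrophages, fell from 316 and 303 CPM to 119 and 120 (log2 -1.38, edgeR adjusted p = 3.31e-05). Its change was near that of Pf4 (log2 -1.17), but those of Tbxa2r (-1.06) and Myl9 (-1.35), in other role groups, were nearer. Pdgfb, a platelet-derived growth factor chain (log2 -0.62, edgeR adjusted p = 0.00206), and Mmrn1, the carrier of factor V (log2 -0.37, edgeR adjusted p = 0.0212), were lower too. The call of Mmrn1 ended without the filter (0.0547) and without PBS 2, DKK1 1 or DKK1 2 (0.0820 to 0.107). Thbs1, thrombospondin, was the most abundant of the group and rose from 913 and 824 CPM to 1225 and 1193 (log2 0.48, edgeR adjusted p = 0.000700). Sparc, osteonectin, rose (log2 1.13, edgeR adjusted p = 0.000700), as did Nbeal2, needed to form alpha granules (log2 0.58, edgeR adjusted p = 0.00168). Tgfb1 (log2 -0.13) and the granule proteoglycan gene Srgn (-0.02) were not called.

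Of 12 megakaryocyte transcription factors, 2 were higher and 3 lower, beside 17.9% and 15.9% of all genes. Tal1 (log2 -0.76, edgeR adjusted p = 0.00470), the GATA1 cofactor gene Zfpm1 (log2 -0.69, edgeR adjusted p = 0.00424) and the small Maf gene Mafg (log2 -0.33, edgeR adjusted p = 0.00884) fell. Runx1 (log2 0.46, edgeR adjusted p = 0.00583) and the ETS factor gene Fli1 (log2 0.40, edgeR adjusted p = 0.0126) rose. The call ended for Tal1 (edgeR adjusted p = 0.0510) and Mafg (0.0597) without PBS 2, and for Mafg (0.0594) and Fli1 (0.0681) without DKK1 2. Nfe2, needed for platelet release, had 35.8, 34.7, 39.9 and 36.7 CPM in PBS 1, DKK1 1, PBS 2 and DKK1 2 and was not called (log2 0.12). Gata1, the factor that drives megakaryocyte and erythroid genes, had 13.5, 15.9, 18.5 and 16.6 CPM.

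Of 16 cytoskeleton and signalling genes, 7 were higher and 3 lower, beside 17.9% and 15.9% of all genes. Their median log2 difference was 0.10. Tubb1, the beta-tubulin of the platelet marginal band, rose from 58.3 CPM in both libraries of precursor cells 1 to 81.6 and 78.4 (log2 0.46, edgeR adjusted p = 0.00598). Tuba8 (log2 1.24, edgeR adjusted p = 0.00163), the cyclooxygenase gene Ptgs1 (log2 0.74, edgeR adjusted p = 0.00260) and the phospholipase gene Plcg2 (log2 0.57, edgeR adjusted p = 0.000731) rose as well. Myl9, a myosin light chain (log2 -1.35, edgeR adjusted p = 0.00126), Plek, pleckstrin (log2 -0.54, edgeR adjusted p = 0.000355), and Flna, filamin A (log2 -0.20, edgeR adjusted p = 0.0258), fell. Talin, encoded by Tln1, differed by 0.14 (edgeR adjusted p = 0.0251), while Myh9 (log2 0.09) and Rap1b (0.07) were not called. The calls of Flna and Tln1 ended without the filter, with DESeq2 and without PBS 2, DKK1 1 or DKK1 2, and that of Tln1 also with upper-quartile scaling (adjusted p from 0.0551 to 0.178 over these). Several of the genes in this group, such as Flna, Myh9, Tln1 and Plek, are abundant in all myeloid cells.

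**Figure D4:**
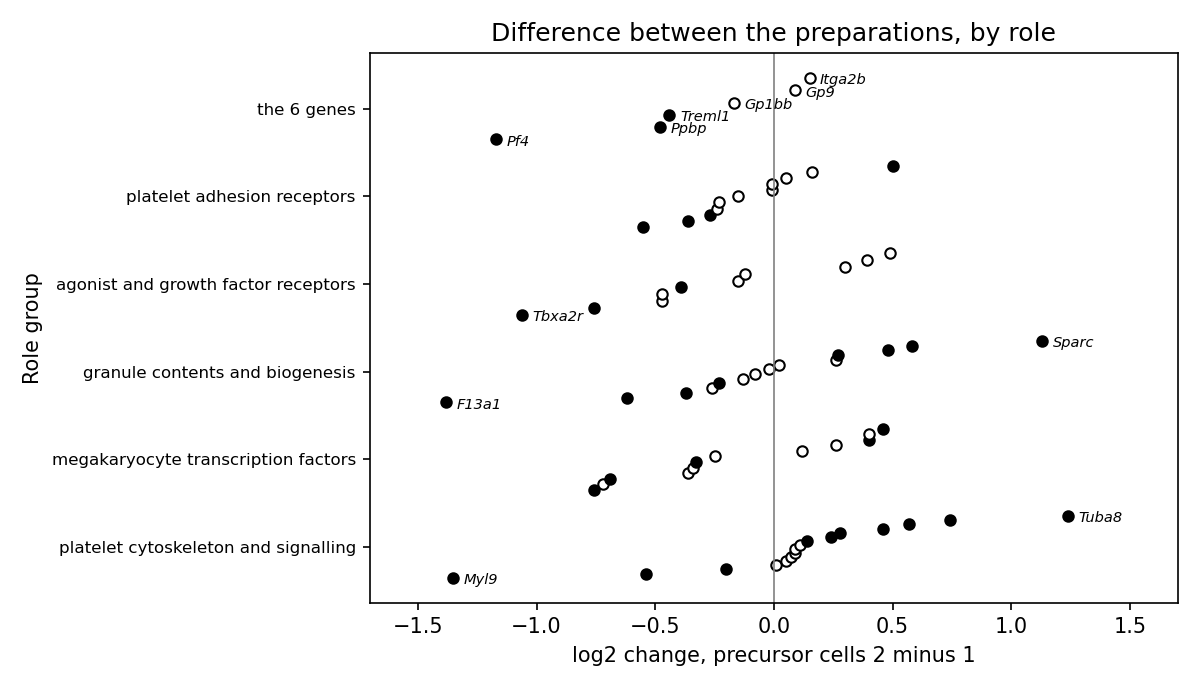
log2 change between the preparations for the 6 genes and the 63 further genes by role group; each point is 1 gene, filled where edgeR's adjusted p is under 0.05. Within every role group points fall on both sides of 0. The lowest points beside Pf4 (-1.17) are F13a1 (-1.38), Myl9 (-1.35) and Tbxa2r (-1.06), each in a different group.

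Markers of other cell types also differed between the preparations, and their part in the values above was not tested. The counts below stand beside 17.9% of all genes called higher and 15.9% called lower. Of 20 monocyte and macrophage markers (highest Lyz2, Apoe and Mpeg1), 12 were higher and 5 lower in precursor cells 2, with a summed level of 40372 and 40511 CPM in the first preparation and 41706 and 41501 in the second. Lyz2 alone held 24897 and 24765 CPM of the first sum and 14281 and 14679 of the second, and the other 19 markers summed to 15476 and 15745 against 27425 and 26822 CPM. Of 11 erythroid markers tested (Tfrc, Hba-a1 and Hbb-bs), 5 were higher and 2 lower. Their summed level was 332 and 299 CPM against 266 and 235, of which Tfrc, the transferrin receptor of many dividing cells, held 209 and 206 against 91.4 and 98.4. The other erythroid markers summed to 123 and 93.2 against 175 and 136 CPM, and all 4 globin genes were higher in precursor cells 2 (log2 0.36 to 1.01). Car1 had 0 counts, and the erythroid factor gene Klf1 had 0, 3, 0 and 0 counts. Of 9 mast cell and basophil markers tested (Hdc, Kit and Prss34), 4 were higher and 1 lower, at 117 and 113 CPM against 130 and 111 (without Hdc 43.0 and 40.0 against 66.0 and 55.2), and the mast cell proteases Mcpt4, Tpsb2 and Cma1 had 0 counts. Of 13 neutrophil markers (Ngp, S100a9 and Ltf), 11 were higher and 1 lower, and the sum went from 5632 and 5509 CPM to 10157 and 10242. All 10 B cell markers (Ighm, Cd79a and Cd79b) were lower, at 408 and 274 CPM against 165 and 151. The counts higher and lower were 4 and 3 of 10 osteoclast precursor markers (Csf1r, Mmp9 and Acp5), 5 and 1 of 8 endothelial (Vwf, Eng and Kdr), 2 and 1 of 10 stromal (Col1a1, Col1a2 and Col3a1) and 1 and 1 of 7 T and NK cell markers (Cd4, Nkg7 and Cd8a). The summed levels were 3535 and 3404 CPM against 3916 and 3850 (osteoclast precursor), 215 and 202 against 316 and 319 (endothelial), 76.1 and 103 against 131 and 122 (stromal), and 24.5 and 24.7 against 39.5 and 39.0 (T and NK cells). Leaving out the most abundant gene turned the order for osteoclast precursors, to 1503 and 1436 against 1342 and 1258 CPM without Csf1r, and left T and NK cell markers between 12.3 and 14.2 CPM in all 4 libraries without Cd4. Itgb3, Vwf, Pecam1 and Gata2 stand both in these lists and among the 63 genes.

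The pattern of Pf4 over the 4 libraries was compared with that of 6828 genes of at least 20 CPM, by the distance between mean-centred log2 CPM. The nearest were Odc1 (distance 0.053), Ahcy (0.073), Chchd4 (0.079), Rrp12 (0.080) and Slc7a1 (0.084). Odc1 had 214 and 192 CPM in the first preparation and 88.5 and 88.1 in the second. For Itga2b, among 11854 genes of at least 1 CPM, the nearest were Ctsa (0.011), Il4ra (0.012), B4galt5 (0.014), Bap1 (0.019) and Rbbp5 (0.021). None of these 10 genes is on the list of 63. That list is small beside the 6828 and 11854 candidates, so this does not show whether Pf4 or Itga2b follows it. The floor of 20 CPM also left out Myl9 (log2 -1.35, mean 12.1 CPM) and Tbxa2r (log2 -1.06, mean 5.82 CPM). With 4 libraries, only a coarse comparison of patterns is possible.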

How the data were processed

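Total RNA of 4 libraries, 2 per treatment, was sequenced. Counts per gene were deposited by the authors as whole numbers, not normalized. The submitters' processing notes name fastp, HISAT2 and mm10; which program made the counts, with which gene models and strand setting, is not given in the sources used here. The deposited comparison tables, 1 per preparation, give the authors' log2 ratio and p-value with FDR from an unstated test of 1 library against 1, and FPKM values made by the authors. Their counts matched the count table, with 0 that differed.

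Of 53801 genes, 17462 passed edgeR's filterByExpr and held 99.95% of counts. The test was edgeR 4.0.16 quasi-likelihood (TMM scaling) under R 4.3.3, modelling the preparation and the treatment, 1 residual degree of freedom, two-sided, adjusted by Benjamini-Hochberg over all genes tested at 0.05. The number in each title was taken as the preparation; the labels give 2 mice, deviations of same-numbered libraries correlated at 0.869 and principal component 1 (87.7% of variance) parted the numbers. The p-values measure only the spread between these libraries. CPM are TMM-scaled; RPKM divides them by exon union length (GENCODE M21). Differences between single libraries use log2 CPM with a prior count of 2. The script was tested on simulated data. Near-identical transcripts were sought with BLAST 2.17.0 (95% identity, at least 100 bases and 50% of the shorter transcript). DESeq2 1.42.0 and limma 3.58.1 (voom) were alternatives.

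The members and gene lists were chosen with earlier results of these data known. Named are the 6 genes, per role group the 4 most abundant and up to 6 called genes with the smallest p, the 3 most abundant per cell type list, and the 5 genes nearest in pattern to Pf4 and to Itga2b. Rasgrp2, Tal1 with DKK1, Gp1ba, Gp6, Clec1b, Gata1, Klf1, Calcr, Oscar, Nfatc1, Ctsk, Atp6v0d2, Dcstamp, Ocstamp and Sept5 were chosen after their values were seen.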

Additional observations from a re-analysis of the deposited data

How the results depend on the processing

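The call of Pf4 and Ppbp between the preparations held in all 8 other settings and in all 4 fits with 1 library left out, with log2 values from -1.22 to -1.11 (Pf4) and from -0.53 to -0.46 (Ppbp). That of Treml1 held in 6 of 8 settings and ended without the filter on low counts (-0.46) and with DESeq2 (-0.43), and with 1 library left out its value ranged from -0.57 to -0.31. Summing Gp1bb with Sept5 turned its log2 value to 0.22 by construction. Genes called between the preparations numbered 5905, and 3507 without the filter; with 1 library left out they ranged from 3194 to 4570, and those of the 63 further genes from 17 to 26 (30 with all libraries). For DKK1, 9 genes were called, against 5 with upper-quartile scaling, 0 without the filter, 15 with a stricter filter, 3 with the legacy method, 2 with limma-voom and 46 with DESeq2; the cause was not tested. Without the replicate block, that is without pairing the libraries, edgeR called 0 genes, and 0 again with any 1 library left out. None of these settings called any of the 6 genes or of the 63 with DKK1. Fits with 1 library left out are unpaired, assume that the lone library varies like the others, and leave 1 preparation in excess on 1 side, so their directions say nothing on DKK1: the log2 values ranged from -0.72 to 0.68 (Pf4), -0.24 to 0.28 (Ppbp), -0.15 to 0.03 (Itga2b), -0.09 to 0.11 (Gp9), -0.08 to 0.15 (Gp1bb), -0.41 to 0.15 (Treml1) and -0.15 to 0.74 (Tal1). Between the preparations Srgn ranged from -0.09 to 0.03. By the authors' deposited FPKM, the mean levels of Itga2b and Gp9 were 33.6 and 27.2 in place of 37.3 and 30.2 RPKM. Those of the other 4 genes moved by less than 1 SD, which includes the difference between the preparations. Of 555 other values for the further genes that were named, 514 kept direction and call, 36 lost the call, 2 gained it and 3 turned sign.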
